A study of Mus musculus with 2 samples.

Results

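The 10 genes described here are the immediate-early genes Fos, Fosb, Jun, Junb, Egr1, Nr4a1, Atf3, Ier2, Ier3 and Zfp36, found by their symbols among the 54838 gene identifiers of both libraries. All 10 were present with 1 identifier each. Endothelium from mouse adrenals, sorted as viable CD31+ CD45- cells, was profiled by 10x Genomics single-cell RNA sequencing after a cold protease digestion. There were 2 libraries, 1 labelled VEGF/LysM and 1 labelled WT, both from adrenal glands of female mice aged 12 weeks. Per the series' own design text the comparison asked how VEGF-A from macrophages bears on endothelial diversity in the gland. LysM is the name of Lyz2, a gene of myeloid cells. The sources used here do not give the VEGF allele, the strain or the number of mice behind each library. Every value compares 1 library with 1 library, so there is no replicate check and no test, and all intervals are 95% intervals that cover counting error only.

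Immediate-early genes are transcribed within minutes of a stimulus, without new protein synthesis, when kinases such as ERK and p38 act on transcription factors already bound at their promoters, among them SRF with its partners and CREB. Most encode transcription factors, and their RNAs and proteins are short-lived. In endothelium they respond to growth factors including VEGF-A, to shear stress, to cytokines and to the handling of tissue during dissociation. Fos, Fosb, Jun, Junb and Atf3 encode basic leucine zipper proteins, and Fos and Jun proteins pair as the factor AP-1. Egr1 encodes a zinc-finger factor and Nr4a1 an orphan nuclear receptor. Ier2 and Ier3 encode immediate-early response proteins, of which Ier3 bears on cell survival. Zfp36 encodes tristetraprolin, which binds AU-rich elements and speeds the decay of cytokine mRNAs.

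The promoters of 8 of the 10 genes were matched in RefSeq (GRCm38.p6). Those of Egr1 and Ier2 are named only. The 5 printed here were chosen because they hold all but 1 of the motif matches found. Each runs 5′ to 3′ on the gene's own strand from 250 bases before the start site to 50 after it. Capitals mark matches, on either strand, to the core of the CRE that CREB and ATF proteins bind (TGACG), to an EGR site (GCGNGGGCG), to a TATA box (TATAAA) or to the CArG box that SRF binds.
Fos: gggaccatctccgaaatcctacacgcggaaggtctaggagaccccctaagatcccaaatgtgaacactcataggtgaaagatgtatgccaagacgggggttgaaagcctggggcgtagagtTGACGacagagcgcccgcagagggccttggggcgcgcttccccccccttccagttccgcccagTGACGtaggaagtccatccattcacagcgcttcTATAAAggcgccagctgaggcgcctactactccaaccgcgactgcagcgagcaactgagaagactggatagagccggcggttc
Fosb: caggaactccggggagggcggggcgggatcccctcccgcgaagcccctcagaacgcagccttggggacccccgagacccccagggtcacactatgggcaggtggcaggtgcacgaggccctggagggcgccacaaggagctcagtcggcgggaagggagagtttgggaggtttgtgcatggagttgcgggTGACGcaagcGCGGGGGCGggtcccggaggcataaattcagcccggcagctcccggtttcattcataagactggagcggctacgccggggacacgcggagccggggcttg
Junb: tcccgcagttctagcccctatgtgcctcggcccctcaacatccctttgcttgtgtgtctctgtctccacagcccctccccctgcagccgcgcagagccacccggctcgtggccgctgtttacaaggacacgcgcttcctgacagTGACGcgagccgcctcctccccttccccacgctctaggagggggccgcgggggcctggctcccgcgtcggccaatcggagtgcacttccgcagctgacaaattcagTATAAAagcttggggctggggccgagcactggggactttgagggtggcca
Nr4a1: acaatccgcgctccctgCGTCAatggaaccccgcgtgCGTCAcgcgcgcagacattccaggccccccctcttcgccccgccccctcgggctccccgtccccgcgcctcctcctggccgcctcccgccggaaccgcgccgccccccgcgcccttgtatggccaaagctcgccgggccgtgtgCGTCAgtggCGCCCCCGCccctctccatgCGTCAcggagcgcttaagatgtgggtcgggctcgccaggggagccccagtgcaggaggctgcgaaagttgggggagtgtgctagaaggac
Zfp36: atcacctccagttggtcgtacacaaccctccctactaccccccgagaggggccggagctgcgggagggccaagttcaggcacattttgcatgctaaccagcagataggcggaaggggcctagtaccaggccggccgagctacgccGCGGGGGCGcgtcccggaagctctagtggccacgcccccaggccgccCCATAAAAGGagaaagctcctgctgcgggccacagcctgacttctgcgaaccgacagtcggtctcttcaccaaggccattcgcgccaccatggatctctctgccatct

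The Fos window lies at chr12:85473640-85473939 on the plus strand and the Nr4a1 window at chr15:101266596-101266895 on the plus strand. Fosb (chr7:19309996-19310295), Junb (chr8:84978699-84978998) and Zfp36 (chr7:28379179-28379478) lie on the minus strand. The CRE core was found in 5 of the 8 windows (Fos, Fosb, Junb, Nr4a1 and Atf3), against 20.8% of 32851 promoters of the same length. Nr4a1 held 4 copies of it and Fos 2. An EGR site was found in 3 of 8 (Fosb, Nr4a1 and Zfp36), against 5.55% of promoters. The CArG box was found in 1 of 8 (Zfp36), against 1.63%, and the TATA box in 2 of 8 (Fos and Junb), against 13.6%. No match overlapped another, and the TATA letters of Junb begin at its start site. The full CRE (TGACGTCA) and the AP-1 site (TGANTCA) were in 0 of 8 windows, against 1.79% and 7.81% of promoters. The Jun and Ier3 windows held no match. Sequence outside these windows was not searched, nor was any of Egr1 or Ier2. A window without a match therefore does not show that a gene lacks the site. A match describes the letters and not a bound site.

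After filtering, the VEGF/LysM library held 3506 endothelial cells with a median of 2295 UMIs and the WT library 5668 with a median of 1154 UMIs. The summed endothelial depth was 8863311 UMIs in VEGF/LysM and 7393459 UMIs in WT. The libraries shared 10 barcodes, 8 of them endothelial. The endothelial label held in both, with Pecam1 at 1249 CPM in VEGF/LysM and 1308 CPM in WT and Cdh5 at 1355 and 1440 CPM in the same order, where CPM is UMIs per 1000000 UMIs summed over the cells of a group. Vessel classes came from clustering without the 10 genes, other stimulus-induced genes, ERK feedback inhibitors and heat-shock genes, so the genes did not define the classes in which they were compared. The classes were Plvap-high cells (2125 VEGF/LysM and 4107 WT), from clusters that took no other name and held the fenestrated-endothelium gene Plvap at 700 CPM or more, and capillary-like cells led by markers such as Cd36 (745 and 773). Arterial-like cells (323 and 341) and tip-like cells (98 and 148) were smaller. A further 215 and 299 endothelial cells carried none of these names. By their markers the tip-like cluster and a lymphatic-marker cluster were kept apart from Plvap-high cells, though they held Plvap at 706 and 2205 CPM.

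The 10 genes together were lower in the VEGF/LysM library than in WT. Their summed level over all endothelial cells was 2021 CPM in VEGF/LysM and 2592 CPM in WT, a log2 ratio of -0.36 (-0.39 to -0.33). Taking as lower or higher a gene whose levels stood at a ratio of 5 to 4 or wider, 5 of the 10 were lower in VEGF/LysM (Fos, Fosb, Egr1, Nr4a1 and Zfp36) and 0 higher, where 11.4% of 12275 measured genes were lower and 10.0% higher. Measured here means at least 50 UMIs over both libraries. The median log2 ratio of the 10 genes was -0.32, against -0.03 over all measured genes. Nr4a1, at a ratio of 0.794, lay just inside the limit of 0.8 and Junb, at 0.803, just outside it. The number lower was 8 at a common depth of 1000 UMIs per cell, where 14.6% of 10337 measured genes were lower, and 8 with a stricter cell filter, where 12.2% of 12124 were. The lowest number, 4, came with TMM scaling (8.52% of all genes lower), with a looser cell filter (11.4%) and with an equal mix of classes (10.7%).

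Among the AP-1 genes, Fos had 112 CPM (105 to 119) in VEGF/LysM and 169 CPM in WT, a log2 ratio of -0.60 (-0.72 to -0.47). Fosb had 28.3 CPM in VEGF/LysM and 39.5 CPM in WT (log2 ratio -0.48). Jun had 790 CPM in VEGF/LysM and 932 CPM in WT (log2 ratio -0.24, -0.29 to -0.19), and Junb 374 CPM in VEGF/LysM and 466 CPM in WT (-0.32). Fos, the partner that Jun proteins take up on stimulation, thus showed a wider gap than Jun, and their intervals did not overlap. Atf3, a stress-induced relative of these factors, had 35.0 CPM in VEGF/LysM and 41.7 CPM in WT (-0.25, -0.48 to -0.02). Reads of Jun and its antisense gene Junos, of Junb and the opposite-strand gene Prdx2, and of Zfp36 and the antisense gene Gm44710 overlap. The sources used here do not say whether counting used strand. Junos held 569 UMIs in VEGF/LysM and 484 in WT, and Prdx2 987 and 590.

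Egr1 showed the largest gap of the 10 genes over all endothelial cells at full depth. In cells thinned to 1000 UMIs the order turned, with log2 ratios of -1.10 for Fosb, -0.97 for Fos and -0.86 for Egr1. At full depth Egr1 had 206 CPM in VEGF/LysM and 351 CPM in WT, a log2 ratio of -0.77 (-0.86 to -0.68), which is 1.70-fold lower. Zfp36 had 196 CPM in VEGF/LysM and 265 CPM in WT (-0.43, -0.53 to -0.34). Nr4a1 had 49.1 CPM in VEGF/LysM and 61.8 CPM in WT (-0.33), and Ier2 158 CPM in VEGF/LysM and 196 CPM in WT (-0.31). Ier3 had 72.7 CPM in VEGF/LysM and 71.3 CPM in WT, and its interval spanned 0 (0.03, -0.14 to 0.20). In cells thinned to 1000 UMIs its log2 ratio was -0.19, and it was below 0 in 2 of 9 alternatives. UMI counts are not scaled per length of gene, so levels are compared between libraries and classes rather than between genes. As a share of the genes' own UMIs, Jun, Junb and Egr1 made up 67.8% in VEGF/LysM and 67.5% in WT, so the sum follows these genes. Without Jun, which alone held 39.1% in VEGF/LysM and 35.9% in WT, the log2 ratio of the sum was -0.43.

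**Figure D1:**
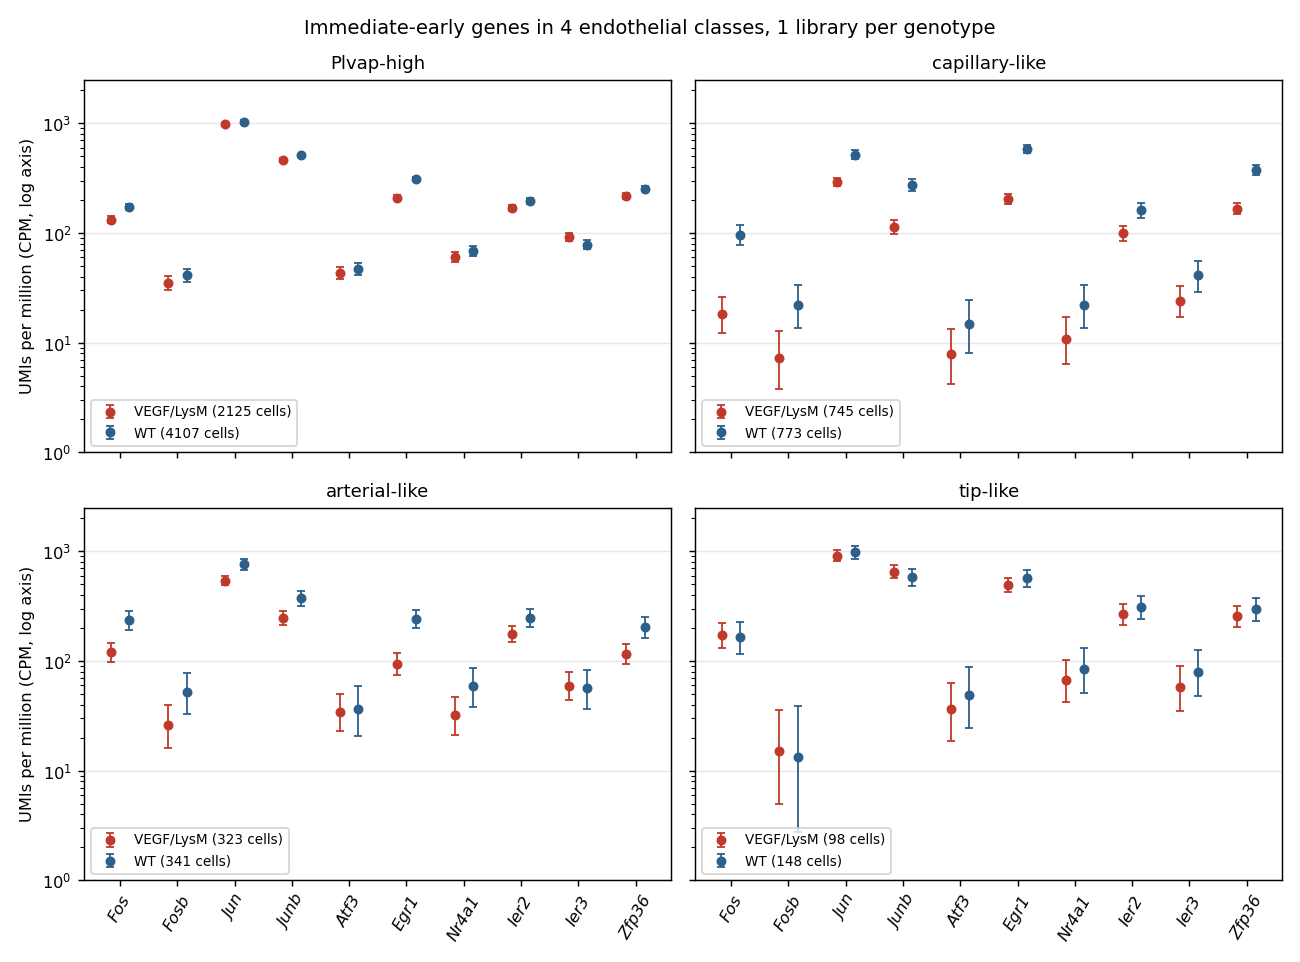
Level of each gene (CPM, log axis) in Plvap-high, capillary-like, arterial-like and tip-like cells, with points for the VEGF/LysM and WT libraries and bars for exact Poisson 95% intervals. In capillary-like cells the Fos point is at 18.2 CPM in VEGF/LysM and 96.9 CPM in WT, while in Plvap-high cells it is at 132 and 174 CPM.

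The vessel classes differed in level within each library, and the difference had another shape in each. In the VEGF/LysM library the summed level was 2936 CPM in tip-like, 2405 CPM in Plvap-high, 1450 CPM in arterial-like and 945 CPM in capillary-like cells. In the WT library the order was the same but the spread narrower, at 3135, 2718, 2270 and 2113 CPM. The intervals of neighbours in this order did not overlap in either library, except those of arterial-like and capillary-like cells in WT (2132 to 2415 and 2022 to 2208 CPM). Against Plvap-high cells, capillary-like cells were lower by a log2 value of -1.35 in VEGF/LysM and -0.36 in WT. Median UMIs per cell stood in the same class order, at 2947, 2471, 2099 and 1699 in VEGF/LysM. In WT they were 1364, 1202, 1128 and 901. In WT cells of 500 to 1000 UMIs, Plvap-high cells had 1936 CPM and capillary-like cells 1923 CPM. At 1500 to 2500 UMIs these were 3104 and 2014 CPM. In VEGF/LysM the values at 500 to 1000 UMIs were 1360 and 521 CPM. The part of depth in the class order was not tested.

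Egr1 and Zfp36 departed from the class order of the summed level. In VEGF/LysM capillary-like cells Egr1 stood at 205 CPM, near the 210 CPM of Plvap-high cells (log2 ratio of the classes -0.04, -0.21 to 0.14). In WT capillary-like cells it stood at 588 CPM, above the 310 CPM of Plvap-high cells (0.92, 0.78 to 1.06). Zfp36 lay below its Plvap-high level in VEGF/LysM capillary-like cells (167 against 218 CPM) and above it in WT ones (376 against 253 CPM). These were the 2 genes of 10 whose interval lay above Plvap-high cells in WT capillary-like cells, and 8 lay below. In VEGF/LysM, 9 of 10 lay below and 0 above.

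In tip-like cells, which carry the marker Apln, Egr1 was high in both libraries, at 496 CPM in VEGF/LysM and 572 CPM in WT. Ier2 was also above its Plvap-high level there, at 268 CPM in VEGF/LysM (0.66, 0.33 to 0.98) and 313 CPM in WT (0.67, 0.30 to 1.02). Fosb held few UMIs in tip-like cells, 5 in VEGF/LysM and 3 in WT (15.2 and 13.4 CPM). Against Plvap-high cells its interval spanned 0 in VEGF/LysM (-1.20, -2.84 to 0.05) and lay below 0 in WT (-1.62, -3.91 to -0.06). Ier3 in tip-like cells lay below its Plvap-high level in VEGF/LysM (-0.67, -1.41 to -0.01) and near it in WT (0.03, -0.74 to 0.71). Fos in arterial-like cells stood at 121 CPM in VEGF/LysM, against 132 CPM in Plvap-high cells, and at 235 CPM in WT, against 174 CPM. The arterial excess of Fos in WT (0.44, 0.13 to 0.73) had an interval above 0, and the VEGF/LysM value (-0.13, -0.45 to 0.18) spanned 0. Tip-like cells numbered under 100 in VEGF/LysM, the minimum for a ratio between libraries, so none was computed for them.

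**Figure D2:**
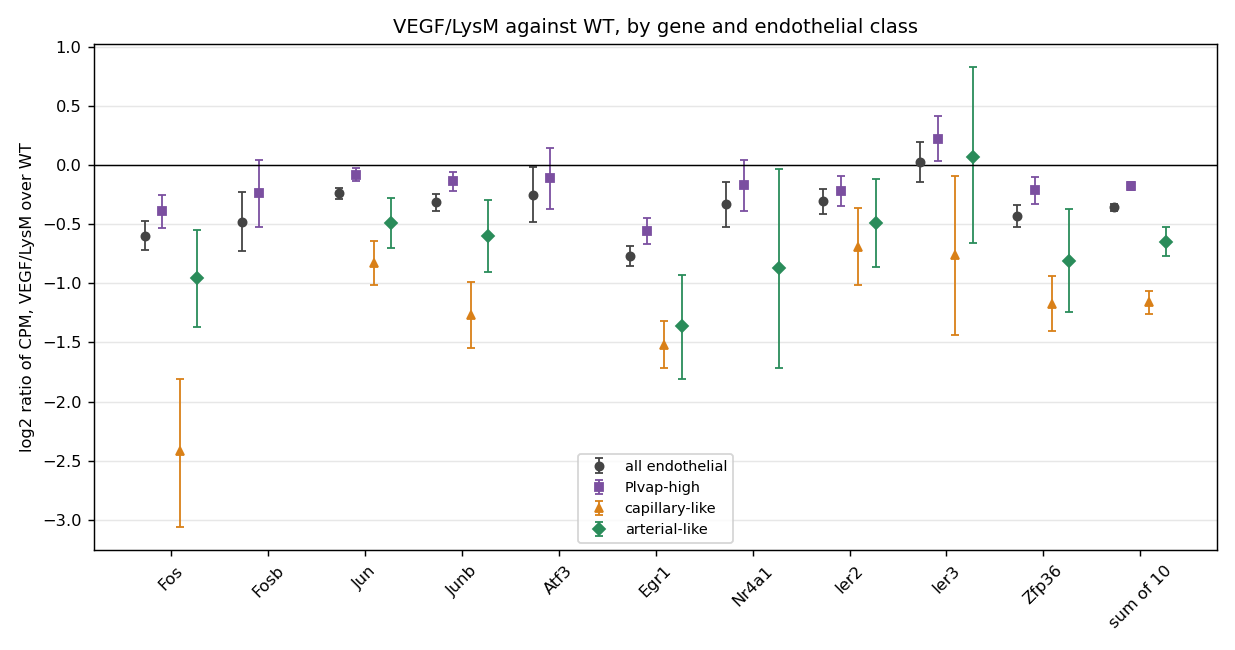
Log2 ratio of CPM, VEGF/LysM over WT, for each gene and for the sum of 10, in all endothelial, Plvap-high, capillary-like and arterial-like cells. Bars are exact conditional binomial 95% intervals, the line marks equality, and genes under 50 UMIs in a class are left out. Capillary-like cells (triangles) lie lowest for most genes, and their sum is at -1.16.

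In capillary-like cells all 7 measured genes were lower in VEGF/LysM by the 5 to 4 limit, where 16.5% of 7446 measured genes were lower and 14.2% higher. Fos had 18.2 CPM (30 UMIs) in VEGF/LysM and 96.9 CPM (92 UMIs) in WT, a log2 ratio of -2.42 (-3.06 to -1.81), which is 5.34-fold lower. Egr1 had 205 CPM in VEGF/LysM and 588 CPM in WT (-1.52, -1.72 to -1.32), and Junb 113 CPM in VEGF/LysM and 273 CPM in WT (-1.27). Zfp36 had 167 CPM in VEGF/LysM and 376 CPM in WT (-1.17, -1.40 to -0.94). Ier2 (-0.69), Ier3 (-0.76) and Jun (-0.83) showed smaller gaps. Fosb, Nr4a1 and Atf3 held 33, 39 and 27 UMIs over both libraries and were not counted. Their levels of 7.26, 10.9 and 7.87 CPM in VEGF/LysM stood beside 22.1, 22.1 and 14.7 CPM in WT. The summed level was 945 CPM in VEGF/LysM and 2113 CPM in WT, which is 2.24-fold lower (log2 ratio -1.16, -1.26 to -1.06).

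The cluster holding most capillary-like cells differed between libraries, with 72.5% of the VEGF/LysM cells (540) in one led by Cdh13 and Pparg and 49.7% of the WT cells (384) in one led by Cxcl12 and Scd1. Within the first of these the summed level was 911 CPM in VEGF/LysM and 1972 CPM in WT (-1.11), and within the second 1182 CPM in VEGF/LysM and 2335 CPM in WT (-0.98). The gap was therefore present in each of these clusters. Fenestrated markers moved with it. All 4 (Plvap, Ehd3, Esm1 and Npr3) were lower in VEGF/LysM capillary-like cells, with a summed 447 CPM in VEGF/LysM and 775 CPM in WT and none at 0, and Plvap itself had 80.5 CPM in VEGF/LysM and 174 CPM in WT. Over capillary-like cells with no Plvap UMI (696 of 745 VEGF/LysM and 693 of 773 WT cells) the log2 ratio of the sum was -1.09. Most cells were kept, so the value could move little. At a median of 1699 UMIs in VEGF/LysM and 901 in WT, a cell with no Plvap UMI may still hold its RNA. The part of RNA from other classes was not tested.

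With cells of all depths pooled, arterial-like cells showed an intermediate gap. Within the ranges of UMIs given below, their gap did not lie between those of the other classes. Of 8 measured genes, 7 were lower in VEGF/LysM by the same limit and 0 higher, where 17.9% of 5061 measured genes were lower and 15.7% higher. Egr1 had 94.0 CPM (76 UMIs) in VEGF/LysM and 242 CPM (107 UMIs) in WT (-1.37, -1.81 to -0.93), and Fos 121 CPM in VEGF/LysM and 235 CPM in WT (-0.96, -1.37 to -0.55). Zfp36 (-0.81) and Nr4a1 (-0.87, -1.71 to -0.03) followed, with Junb at -0.60 and Jun and Ier2 both at -0.49. Ier3 was the exception, at 59.4 CPM in VEGF/LysM and 56.6 CPM in WT. The summed level was 1450 CPM in VEGF/LysM and 2270 CPM in WT (-0.65, -0.77 to -0.52). Fenestrated markers were again lower in VEGF/LysM, 4 of 4 with a sum of 805 CPM in VEGF/LysM and 1186 CPM in WT, and without cells holding a Plvap UMI the log2 ratio was -0.72.

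Plvap-high cells, the most numerous class, showed the smallest summed gap of the 3 named classes given a ratio, again with all depths pooled. Fos and Egr1, 2 of 10, passed the limit as lower in VEGF/LysM and 0 were higher, where 11.8% of 11226 measured genes were lower and 8.92% higher. Egr1 had 210 CPM in VEGF/LysM and 310 CPM in WT (-0.56, -0.67 to -0.45), and Fos 132 CPM in VEGF/LysM and 174 CPM in WT (-0.39). Jun had 980 CPM in VEGF/LysM and 1038 CPM in WT (-0.08, -0.14 to -0.03). Fosb (-0.24), Nr4a1 (-0.17) and Atf3 (-0.11) had intervals that spanned 0. Ier3 had 91.8 CPM in VEGF/LysM and 78.6 CPM in WT, and its interval lay above 0 (0.22, 0.04 to 0.41). In cells thinned to 1000 UMIs its log2 ratio was 0.0013, so that it stood level there. The sum was 2405 CPM in VEGF/LysM and 2718 CPM in WT (-0.18, -0.21 to -0.14). By cluster it ranged from -0.47 in a cluster led by Gm14226, Hmcn1 and Mal to 0.01 in one led by Igfbp5, and the largest cluster over both libraries, led by Nlgn1 and Oit3, had 2695 CPM in VEGF/LysM and 2694 CPM in WT (0.00, -0.07 to 0.07).

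The libraries differed in depth, and the level of these genes varied with the UMIs of a cell. Among all endothelial cells the summed level was 985 CPM in VEGF/LysM cells of 500 to 1000 UMIs and 2690 CPM in those of 4000 or more. In WT the values for these ranges were 1901 and 3014 CPM. Within ranges of UMIs (upper bounds not included), chosen after the data had been seen, the gap was wider than in the pooled cells except at the deepest range. The log2 ratio was -0.95 at 500 to 1000, -1.28 at 1000 to 1500, -1.0 at 1500 to 2500, -0.40 at 2500 to 4000 and -0.16 at 4000 or more UMIs, where 41 WT cells remained.

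In Plvap-high cells the values over the first 4 of these ranges were -0.51, -0.91, -0.92 and -0.45, all lower than the pooled -0.18. At 1500 to 2500 UMIs, 795 VEGF/LysM cells had 1640 CPM and 999 WT cells 3104 CPM. In capillary-like cells the values were -1.88, -1.28, -1.22 and -1.07. In arterial-like cells the first range gave -0.25 with an interval that spanned 0 (36 VEGF/LysM and 131 WT cells), and the next gave -1.51 and -0.90. The direction was thus the same in every range, and the size of the gap, above all in Plvap-high cells, depended on the depth of the cells compared. What part depth has in the differences was not tested.

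**Figure D3:**
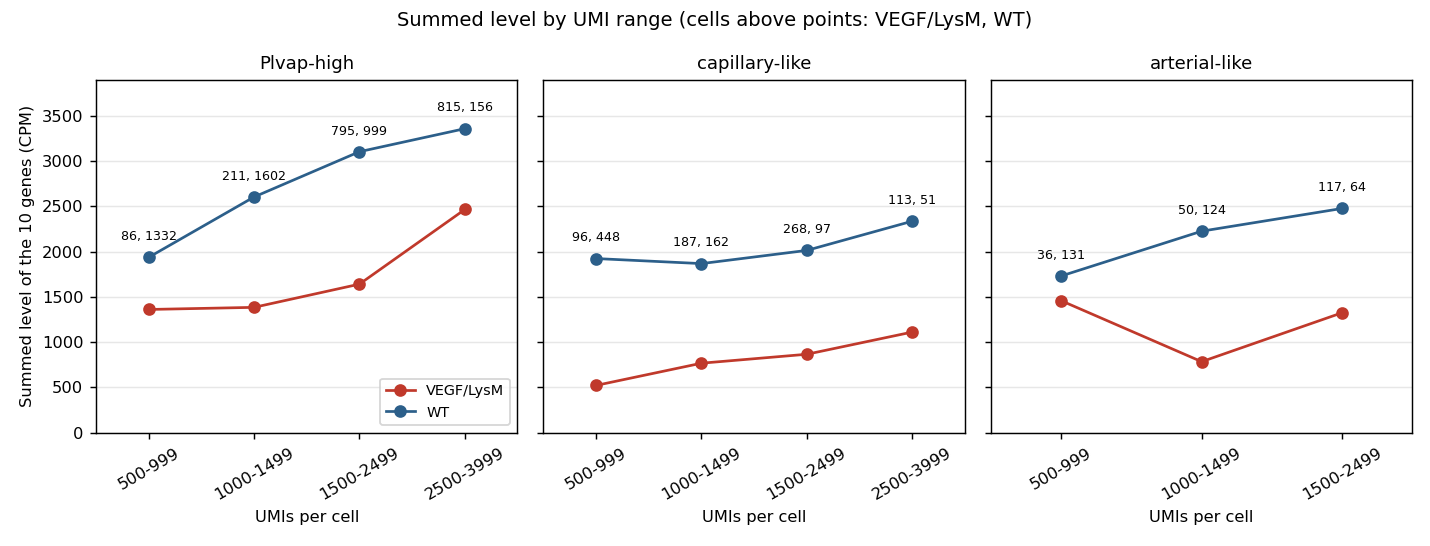
Summed level of the 10 genes (CPM) by range of UMIs per cell in Plvap-high, capillary-like and arterial-like cells, for VEGF/LysM and WT, with the number of cells of each above the points. The VEGF/LysM points lie below the WT points in every range shown, and in Plvap-high cells of 1500 to 2500 UMIs they are at 1640 and 3104 CPM.

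The genes were unevenly spread over cells. To compare cells at 1 depth, each was thinned at random to 1000 UMIs, which left 3230 VEGF/LysM and 3567 WT cells and left out 276 and 2101 shallower ones. The mean was 1.82 UMIs of the 10 genes per cell in VEGF/LysM and 2.69 in WT, and the median 1 in both. Cells with 0 such UMIs made up 39.9% in VEGF/LysM and 28.5% in WT, where Poisson counts of the same means would give 16.3% and 6.79%. Cells with 10 or more numbered 75 in VEGF/LysM (2.32%, 1.83 to 2.90) and 168 in WT (4.71%, 4.04 to 5.46), where Poisson counts would give 0.0021% and 0.0487%. Both tails were therefore heavier than counting alone gives. Near this limit lay 56 VEGF/LysM and 146 WT cells with 8 or 9 UMIs and 44 and 84 cells with 10 or 11, so the cells with 10 or more are the end of a range and not a separate group.

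**Figure D4:**
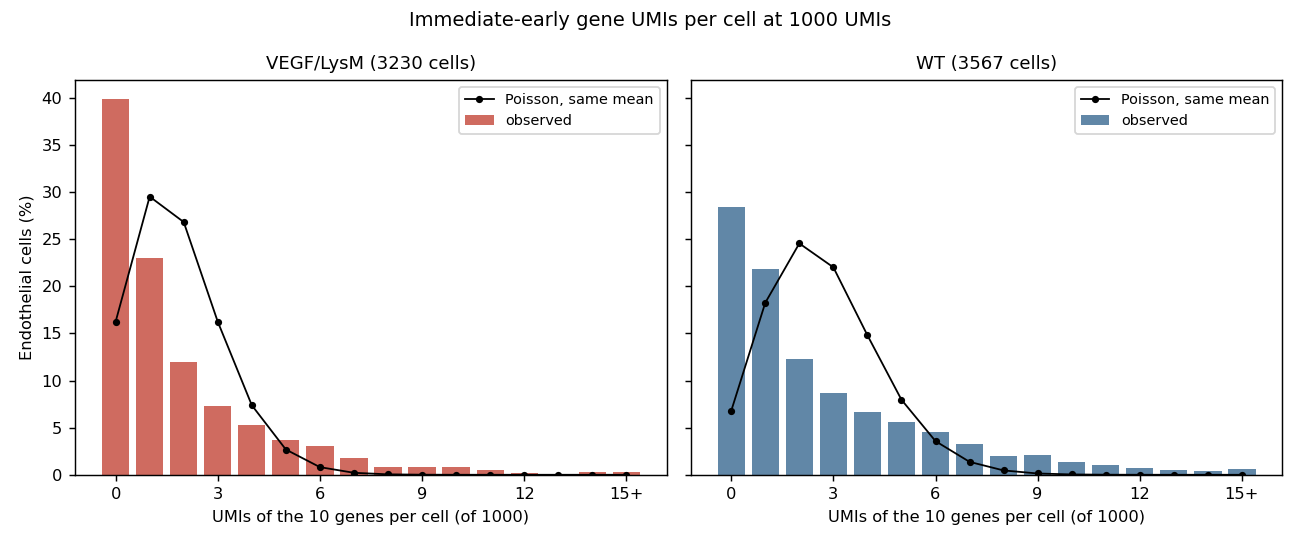
Share of endothelial cells (%) by the number of UMIs of the 10 genes per cell after thinning to 1000 UMIs, with 15 or more pooled, for VEGF/LysM (3230 cells) and WT (3567 cells). Bars are observed shares and the black line is a Poisson distribution of the same mean. Cells with 0 UMIs are 39.9% in VEGF/LysM and 28.5% in WT, above the line in both.

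The 10% of cells with most of these UMIs held 43.4% of them in VEGF/LysM and 37.5% in WT, against 24.9% and 21.8% for Poisson counts of the same means. By class the cells with 0 UMIs made up 54.2% of VEGF/LysM and 25.8% of WT capillary-like cells, and 34.5% and 28.7% of Plvap-high cells. Thinning left out 96 of 745 VEGF/LysM and 448 of 773 WT capillary-like cells, and 86 of 2125 and 1332 of 4107 Plvap-high cells. Over all endothelial cells the shallow ones held lower levels, and more of them were left out in WT. What part this has in the gaps between thinned libraries was not tested. Cells with 5 or more of the 10 genes detected together numbered 91 in VEGF/LysM and 248 in WT, and no cell held more than 7 of the genes in VEGF/LysM or 8 in WT. Without thinning, 74.0% of VEGF/LysM and 70.3% of WT cells held a UMI of any of the genes, an order that goes against the CPM and cannot be told apart from the deeper VEGF/LysM cells.

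Gene by gene at 1000 UMIs, Jun was detected in 37.5% of VEGF/LysM cells (35.8 to 39.2) and 48.2% of WT cells, and Junb in 21.9% and 31.0%. Fos was detected in 7.03% of VEGF/LysM cells (6.17 to 7.96) and 12.5% of WT cells (11.4 to 13.6), and Egr1 in 12.4% and 21.9%. Before thinning the Fos shares were 12.8% in VEGF/LysM and 12.6% in WT, and those of Egr1 21.6% and 23.4%. The variance-to-mean ratio over cells was 2.04 for Jun in VEGF/LysM and 2.10 in WT, rank 70 of 8322 and 52 of 8633 measured genes. It was 1.66 and 1.89 for Fos and 1.99 and 1.87 for Egr1, against a median of 1.04 and 1.03 over all genes. It was 1.21 and 1.20 for Ier2 and 1.19 and 1.23 for Nr4a1. This ratio is higher for genes of higher level, and the squared coefficient of variation beyond counting, which does not scale with level, gave another order. It was 1.51 for Jun in VEGF/LysM and 1.10 in WT, 3.69 and 3.78 for Nr4a1, 5.25 and 2.54 for Egr1 and 6.97 and 4.76 for Fos. For Fosb the variance-to-mean ratio was 1.04 in VEGF/LysM, at the median of all genes, and 1.48 in WT. Its squared coefficient of variation beyond counting was 2.15 in VEGF/LysM and 11.4 in WT.

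To see whether a cell high in these genes is high beyond counting, the 1000 UMIs of each cell were divided at random into 500 and 500. Cells ranked in the top 10% by the first 500 UMIs (323 VEGF/LysM and 357 WT cells) were then measured in the other 500. The top cells had 5740 CPM and the rest 1383 CPM in VEGF/LysM, a ratio of 4.15 (3.84 to 4.49), and 7361 and 2204 CPM in WT, a ratio of 3.34 (3.13 to 3.56). The last count inside the top 10% was 3 in VEGF/LysM and 4 in WT. At that count 115 VEGF/LysM and 137 WT cells lay inside it and 44 and 47 outside, placed by a random tie-break. The level in the other 500 UMIs climbed step by step with the count in the first, from 822 CPM at 0 to 9684 CPM at 8 or more in VEGF/LysM and from 1127 to 9535 CPM in WT.

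**Figure D5:**
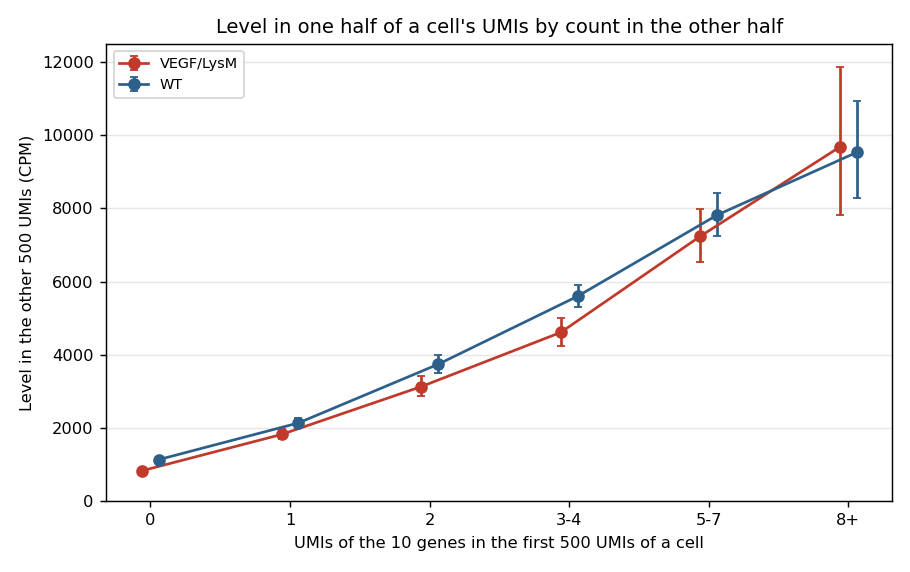
Level of the 10 genes (CPM) in the other 500 UMIs of a cell, by the number of their UMIs in the first 500, for VEGF/LysM and WT, with exact Poisson 95% intervals. Both lines climb without a break, from 822 CPM in VEGF/LysM and 1127 CPM in WT at 0 to 9684 and 9535 CPM at 8 or more.

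By gene the ratio of top cells to the rest was 8.11 for Fos in VEGF/LysM (5.83 to 11.3) and 5.59 in WT (4.46 to 6.99). For Egr1 it was 4.59 in VEGF/LysM and 3.38 in WT, for Junb 4.93 and 3.17, and for Jun 4.03 and 3.15. Nr4a1 had the lowest ratio of the 10, at 1.80 in VEGF/LysM with an interval that spanned 1 (0.881 to 3.38) and 2.30 in WT. Ier2 followed at 2.27 and 2.70. Cells were ranked by the summed count, so this ratio shows how far a gene follows the sum and not its own spread. Plvap-high, capillary-like and arterial-like cells taken alone each gave a ratio above 1. It was 3.90 in VEGF/LysM and 3.32 in WT Plvap-high cells, 3.59 and 2.69 in capillary-like cells and 3.49 and 4.94 in arterial-like cells. The unevenness was thus present inside these 3 classes.

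Plvap-high cells made up 79.6% of the top cells and 61.3% of the rest in VEGF/LysM, and 84.6% and 77.0% in WT. Capillary-like cells made up 5.88% of the top cells and 21.7% of the rest in VEGF/LysM, and 4.48% and 9.63% in WT. Of tip-like cells 19.4% were in the top 10% in VEGF/LysM (12.1 to 28.6) and 12.5% in WT (7.01 to 20.1). The top cells were deeper before thinning in VEGF/LysM, with a median of 2908 UMIs against 2345 in the rest, and less so in WT, with 1460 against 1424. Their mitochondrial share was 1.67% against 1.88% in VEGF/LysM and 1.54% against 1.59% in WT. Red-cell markers, 5 in all with 1 at 0 in the top cells, summed to 1189 CPM in the top cells and 529 CPM in the rest in VEGF/LysM, and to 134 and 376 CPM in WT. Myeloid markers, with 8 of 10 at 0 in the top cells of each library, summed to 161 CPM in the top cells and 138 CPM in the rest in VEGF/LysM, and to 168 and 113 CPM in WT. The part of depth and of RNA from other cells in this ranking was not tested.

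Other stimulus-induced genes were high in the same cells. Of 45 listed genes, 31 were measured in VEGF/LysM and 22 of these were higher in the top cells by the 5 to 4 limit and 1 lower, where 20.9% of 6048 measured genes were higher and 27.8% lower. In WT 20 of 30 were higher and 2 lower, where 20.0% of 6454 were higher and 26.9% lower. Jund, Btg2 and Dusp1 are given as examples, picked for their correlation with the sum over these same cells. Their rise in the top cells follows from that choice and adds no support. Jund, a leucine zipper partner of Fos, had 762 CPM in the top cells and 268 CPM in the rest in VEGF/LysM, and 723 and 319 CPM in WT. Btg2, an antiproliferative gene, had 452 and 166 CPM in VEGF/LysM and 454 and 179 CPM in WT. Dusp1, a phosphatase that switches off MAP kinases, had 762 and 420 CPM in VEGF/LysM and 1126 and 527 CPM in WT.

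The transcripts of the upstream pathway showed no such excess. Of all measured genes 20.9% were higher in the top cells in VEGF/LysM and 20.0% in WT, and 27.8% and 26.9% lower. Of the listed MAP kinase, SRF and CREB genes, 3 of 17 measured in VEGF/LysM and 1 of 18 in WT were higher in the top cells, and 4 and 5 were lower. Of ERK feedback inhibitors 2 of 7 were higher and 1 lower in each library. Heat-shock genes were higher in 4 of 9 and lower in 1 in VEGF/LysM, and higher in 5 of 8 and lower in 0 in WT. Their shares higher lay above those of all genes in both libraries. The median log2 ratio of the heat-shock genes, top cells over the rest, was -0.06 in VEGF/LysM and 0.57 in WT. Hspb1, among the widest on the list, had 675 CPM in the top cells and 360 CPM in the rest in VEGF/LysM, and 415 and 187 CPM in WT.

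Within cells at 1000 UMIs the 10 genes varied together in part. Over the 3230 VEGF/LysM and 3567 WT cells, which share a library in each case, Pearson's r between log counts was positive for 43 of 45 pairs in VEGF/LysM and 45 of 45 in WT. The highest was Jun with Junb, at 0.36 in both. Against the sum of the other 9, r was 0.44 and 0.45 for Junb, 0.43 and 0.44 for Jun, 0.32 and 0.38 for Fos and 0.32 and 0.35 for Egr1 in VEGF/LysM and WT. Nr4a1 had 0.10 in both, the lowest of the 10. In counts this sparse so low an r does not show that a relation is absent. Fosb and Atf3 were sparser than Nr4a1, at a mean of 0.020 and 0.030 against 0.051 UMIs per 1000 in VEGF/LysM. In WT the means were 0.043 and 0.041 against 0.060. Their r was higher, at 0.17 in VEGF/LysM and 0.21 in WT for Fosb and 0.15 and 0.18 for Atf3. These differences were not tested. For the other 9 genes, at least 2 of the 3 best partners were members of the group, while those of Nr4a1 were Igfbp5, Igfbp3 and Tsc22d1, none above 0.12.

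Among 8139 other genes, those most like the sum in the lower of the libraries' r were Jund (0.31 in VEGF/LysM, 0.31 in WT), the small GTPase gene Rhob (0.23, 0.22), Btg2 (0.20, 0.27), Dusp1 (0.19, 0.25) and the NF-kappaB regulator Nfkbiz (0.19, 0.23). Hsp90ab1, Adamts1, Plk2, Gm20532, Tpt1, Tcim and Zfand5 followed, down to 0.14 in VEGF/LysM and 0.16 in WT for Zfand5. Of these 12, 7 were on the list of stimulus-induced genes, and the median r of all genes was -0.01. Gm20532 shares exons and strand with the endothelial gene Egfl7, so its count is uncertain.

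Of the related lists, the stimulus-induced and ERK feedback genes held more lower than higher members, as the 10 genes did, and the heat-shock genes more higher than lower ones. The differences between lists were not tested. Of 42 measured stimulus-induced genes, 13 were lower in VEGF/LysM over all endothelial cells by that limit and 1 higher, with a median log2 ratio of -0.07, beside the background of 11.4% lower and 10.0% higher given above. Cyr61, a matricellular gene, had 39.3 CPM in VEGF/LysM and 55.3 CPM in WT (-0.49), and Trib1, a pseudokinase, 94.4 CPM in VEGF/LysM and 132 CPM in WT (-0.48). Ctgf (-0.48) and the cytokine inhibitor Socs3 (-0.46) were also lower. Id1, an inhibitor of helix-loop-helix factors, was higher, with 510 CPM in VEGF/LysM and 381 CPM in WT (0.42). Jund, the gene most like the sum across cells, stood at 354 CPM in VEGF/LysM and 348 CPM in WT (0.02).

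Of 9 ERK feedback inhibitors 3 were lower and 0 higher (median -0.22). Spry4, a Sprouty inhibitor of receptor tyrosine kinase signalling, had 68.1 CPM in VEGF/LysM and 98.9 CPM in WT (-0.54), and Spry2 32.6 CPM in VEGF/LysM and 43.8 CPM in WT (-0.43). Of 21 MAP kinase, SRF and CREB genes 1 was lower and 0 higher (median -0.13). Among heat-shock genes 0 of 11 were lower and 6 higher in VEGF/LysM (median 0.50). The chaperone gene Hspa1a had 36.8 CPM in VEGF/LysM and 19.1 CPM in WT (0.95), Hspa8 290 CPM in VEGF/LysM and 175 CPM in WT (0.73) and Hspb1 380 CPM in VEGF/LysM and 236 CPM in WT (0.69). In Plvap-high cells, where 11.8% of measured genes were lower and 8.92% higher, 4 of 41 stimulus-induced genes were lower and 3 higher, shares near those of all genes, and 6 of 11 heat-shock genes were higher.

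When the stimulus-induced genes were allowed into the clustering, a Plvap-high cluster led by Ccl2, Sele, Ch25h, Adamts1, Fosb and Fos formed. It held 281 cells in VEGF/LysM (8.01% of endothelial cells) and 617 in WT (10.9%), with a summed level of the 10 genes of 5457 CPM in VEGF/LysM and 6072 CPM in WT. Because the genes themselves define this cluster, its size is given as a description and not as a difference between libraries.

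Myeloid-like cells that passed the sort held more of these transcripts than the endothelial cells as a whole. The summed level was 3403 CPM in 96 VEGF/LysM and 3783 CPM in 80 WT myeloid-like cells, and 2589 CPM in 49 VEGF/LysM and 3005 CPM in 39 WT adrenocortical-like cells. Zfp36 was detected without thinning in 54.2% of VEGF/LysM and 57.5% of WT myeloid-like cells, at median depths of 3269 and 2303 UMIs. The stimulus response is common to most cell types, so none here served as one that lacks these genes, and a background from free RNA was not set. In capillary-like cells the myeloid markers summed to 30.9 CPM over 10 genes in VEGF/LysM, with Ptprc, Csf1r and Adgre1 at 0, and to 28.4 CPM in WT, with Ptprc, Cd68 and Adgre1 at 0.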

How the data were processed

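The authors deposited raw UMI counts per gene and cell, 1 matrix for each of the 2 libraries, whole numbers with no normalization. Cell Ranger 7.0.1, Seurat and mm10 are named per the submitters' processing notes, and Cell Ranger 7.0.0 per the file headers. The sources used here do not state the annotation release, strand or intron settings. Files held called cells only.

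Barcodes under 500 UMIs, under 300 genes or over 15% mitochondrial UMIs were left out (14 VEGF/LysM and 142 WT), and the highest scrublet scores were removed as doublets at 0.8% per 1000 barcodes (116 VEGF/LysM, 3.05%, and 315 WT, 5.02%). Cells were clustered with both libraries together (scanpy 1.11.5, leidenalg 0.10.2, 2000 variable genes, 30 components, 15 neighbours, resolution 1, 23 clusters) and named from marker lists. Summed counts gave CPM with exact Poisson intervals, ratios with exact conditional binomial intervals and shares with Clopper-Pearson intervals. The calculations were tested on simulated data. TMM factors (edgeR 4.0.16) served only as an alternative scaling.

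The 10 genes and all lists were chosen with earlier results of these data known. Named genes in lists were the up to 4 with the largest ratios in each direction past a ratio of 5 to 4 at 20 CPM or more. Genes most like the sum were the 12 with the highest r, and each gene's best 3 partners. Jund, Btg2 and Dusp1 in the top cells were named from that list of 12, and Hspb1 there as a gene already named. The UMI ranges, the sum without Jun and the cells without a Plvap UMI were added after seeing the data. Gene coordinates and overlaps came from GENCODE M21 (GRCm38), matching 54723 of 54838 identifiers.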

Additional observations from a re-analysis of the deposited data

Results flagged for a closer look

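Ier3 stood in opposite directions in a pair of vessel classes at full depth. Its log2 ratio, VEGF/LysM over WT, was 0.22 in Plvap-high cells and -0.76 in capillary-like cells, and the intervals of both excluded 0. In cells thinned to 1000 UMIs the Plvap-high value was 0.0013, and the capillary-like value had too few UMIs to be given. With 1 library per group the difference between the classes was not tested.

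In lymphoid-like cells, which enter no comparison of the report, the 10 genes summed to 3271 CPM in 23 VEGF/LysM cells and 2267 CPM in 20 WT cells. This is the reverse of the order in every endothelial class compared. The lymphoid-like cells had a median of 6348 UMIs in VEGF/LysM and 2580 in WT, and the part of depth was not tested.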

How the results depend on the processing

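The summed log2 ratio stayed below 0 in all classes and alternatives run. Over all endothelial cells it was -0.45 with a stricter cell filter, -0.30 with TMM scaling, -0.31 with equal class weights, -0.57 with cells thinned to 1000 UMIs and -0.43 without Jun. The genes lower by the 5 to 4 limit numbered 8 with the stricter filter (12.2% of all genes) and 8 in thinned cells (14.6%). In cells of 500 to 1000, 1000 to 1500, 1500 to 2500, 2500 to 4000 and 4000 or more UMIs the ratio was -0.95, -1.28, -1.0, -0.40 and -0.16. In Plvap-high cells it was -0.31 with the stricter filter (2319 CPM in VEGF/LysM, 2878 in WT), -0.22 without doublet removal (2286, 2658), -0.21 at resolution 1.5 (2316 in VEGF/LysM), -0.12 with TMM (2454, 2664), -0.37 in thinned cells and -0.51, -0.91, -0.92 and -0.45 over the UMI ranges up to 4000. Clustering with stimulus genes gave 2325 and 2657 CPM there. In capillary-like cells it was -1.06 with the stricter filter (1917 CPM in WT), -0.96 without doublet removal (1185, 2303), and -1.88 and -1.28 at 500 to 1000 and 1000 to 1500 UMIs. In arterial-like cells it was -0.49 at resolution 0.5, -0.81 in thinned cells and -0.25, -1.51 and -0.90 over the UMI ranges, with 1548 CPM in VEGF/LysM without doublet removal. Ier2 in arterial-like cells turned to 0.034, from -0.49, with the stricter filter. The share held by the top 10% of cells was 50.2% in VEGF/LysM and 44.5% in WT at 500 UMIs and 38.7% and 30.5% at 2000, the top 5% held 27.1% and 22.3%, and the top 20% held 65.7% and 59.2%. The upper decile, as UMIs per 1000, was 6 in VEGF/LysM and 8 in WT at 500 UMIs and 5.5 in VEGF/LysM at 2000, and the median 0 in VEGF/LysM at 500 and 2.5 in WT at 2000. Of 138 values of the summed results and counts under alternatives 82 kept within the counting interval or 1.5 times the count and 56 moved, and of 375 single-gene values 301 kept within it, 73 moved and 1 turned. Ier3 stood at 0.0013 in thinned Plvap-high cells. TMM scaling shifts every log2 ratio by the same amount. For the other alternatives the cause was not tested. No paired analysis was possible because each group has 1 library, so neither could a replicate be left out. Depth limits Fosb, Nr4a1 and Atf3 in capillary-like cells, and the number of cells limits tip-like cells.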

Other observations

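The cell class with the highest summed level of these transcripts was not endothelial. Individual endothelial cells held up to 21 UMIs of the 10 genes per 1000 in VEGF/LysM and 23 in WT. The class was a cluster led by Hdc, Ccl4, Ccl3, Ccl6 and Il6, with 3 VEGF/LysM and 12 WT cells. In it the 10 genes summed to 13818 CPM (11808 to 16073) in VEGF/LysM and 12237 CPM (10910 to 13680) in WT. Hdc encodes the enzyme that makes histamine, and Ccl3 and Ccl4 encode chemokines. Jun and Junb had 3290 CPM each in VEGF/LysM, and 2733 and 2851 CPM in WT. Egr1 had 2385 CPM in VEGF/LysM (29 UMIs) and 1228 CPM in WT (31 UMIs), and Zfp36 2303 and 1544 CPM in the same order. Nr4a1 had 0 UMIs in VEGF/LysM and 2 in WT, and Atf3 0 in both. Adrenocortical-like cells stood out in Fosb, with 190 CPM (144 to 247) in VEGF/LysM and 228 CPM (145 to 342) in WT, against 28.3 and 39.5 CPM in the endothelial cells of these libraries.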
